A study of Mus musculus with 8 samples.

Results

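Transcripts of cold-induced and heat shock genes were followed in hearts of mice given doxorubicin (DOX), an anthracycline used against tumours that also damages heart muscle, or saline. The members were chosen by symbol: every probe set that the platform annotation assigns to Cirbp, Rbm3, Hspa1a, Hspa1b, Hspa8, Hspb1, Hsp90aa1, Hspd1, Hsph1 or Dnajb1. These 10 genes had 23 of the 45037 probe sets that remained after removal of the controls, where a probe set is a group of short probes summarised to 1 intensity per array. Of the 23 probe sets, 20 were bright enough to be tested, out of 24751 tested in all. The genes had been picked with their DOX differences known, so those differences are a description. Counts of members past the threshold on that contrast stand beside the share of all probe sets, and nothing is read from them. Differences between genotypes, and the dependence of a DOX difference on genotype, were tested.

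The series held 8 one-colour Affymetrix arrays in 4 groups of 2 biological replicates. The DOX groups were MT-/- and MT+/+, and the saline groups were again MT-/- and MT+/+, where MT-/- is the label for mice without functional metallothionein I and II and MT+/+ the label for the corresponding wild type. All mice were males of 6 to 8 weeks, DOX was injected into the body cavity once at 15 mg/kg, and whole hearts were taken on day 4. The labels name neither the strain background nor the design of the null allele, and with 2 arrays per group the precision is limited by the number of arrays.

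Cirbp and Rbm3 encode small glycine-rich RNA-binding proteins whose transcripts rise when mammalian cells are cooled mildly, and both bind and stabilise or regulate the translation of other mRNAs. Heat shock proteins are chaperones that hold or refold other proteins, and many of their genes are switched on by heat shock factor 1 (HSF1), which binds repeated GAA and TTC blocks, the heat shock element, near the gene start. In the heart the HSP70, HSP90 and small heat shock proteins serve in folding, in protein degradation and in the upkeep of the sarcomere.

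Signal of the metallothionein gene Mt1 was present on the arrays labelled MT-/-. The deposited intensity of its brightest probe set was 12549 and 12850 on MT-/- DOX arrays and 6735 and 9285 on MT+/+ DOX arrays, against 4667 and 5322 on MT-/- saline arrays and 3722 and 4034 on MT+/+ saline arrays. The Mt2 probe set gave 2218 and 2213 on MT-/- DOX arrays and 1210 and 2732 on MT+/+ DOX arrays. Under saline it gave 968 and 1018 on MT-/- arrays and 452 and 485 on MT+/+ arrays. The labels do not say which part of either gene was altered, so these probe sets may lie outside it and do not check the labels. The genotype names below are those of the labels. The 8 cardiomyocyte markers lay at or above the 96.8th percentile of every array. Correlations lay between 0.976 and 0.984 within a group and between 0.924 and 0.985 across groups, so replicates were not always the most alike. The 3′ to 5′ signal ratio of the actin control, a measure of RNA integrity, was 0.913 and 1.18 on MT-/- DOX arrays and 0.948 and 1.05 on MT+/+ DOX arrays, against 1.14 and 1.23 on MT-/- saline arrays and 1.15 and 1.24 on MT+/+ saline arrays. For actin the array numbered 2 had the higher ratio in every group, and 3 of 4 DOX arrays were below every saline array. The same ratio of the Gapdh control showed neither pattern, at 0.993 to 1.04 on DOX arrays and 0.984 to 1.05 on saline arrays. The part of RNA integrity in the values below was not tested. Nothing in the labels says more of the replicates than that they are biological, and the p-values measure the spread between them.

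The promoters of 7 of the 10 genes are in the RefSeq table of the assembly GRCm38.p6 and were read from 250 bases before to 50 bases after the annotated gene start. The 6 sequences here are those of the genes on which the results turn, 5′ to 3′ on the gene's strand, and capitals mark the facing blocks GAANNTTC or TTCNNGAA, searched on both strands (each motif reads the same on the other strand). Adjacent matches overlap by 3 bases where 3 blocks follow each other.
Hspa1a: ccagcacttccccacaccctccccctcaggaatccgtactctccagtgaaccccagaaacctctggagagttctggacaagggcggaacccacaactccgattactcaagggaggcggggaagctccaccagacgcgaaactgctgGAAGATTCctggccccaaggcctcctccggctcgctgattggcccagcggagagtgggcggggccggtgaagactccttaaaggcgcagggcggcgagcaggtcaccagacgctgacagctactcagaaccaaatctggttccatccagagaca
Hspa1b: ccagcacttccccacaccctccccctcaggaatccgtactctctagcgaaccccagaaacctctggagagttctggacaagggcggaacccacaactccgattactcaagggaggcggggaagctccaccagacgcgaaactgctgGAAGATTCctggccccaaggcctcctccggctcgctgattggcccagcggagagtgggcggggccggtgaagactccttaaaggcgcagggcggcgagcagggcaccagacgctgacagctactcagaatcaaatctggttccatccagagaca
Hsph1: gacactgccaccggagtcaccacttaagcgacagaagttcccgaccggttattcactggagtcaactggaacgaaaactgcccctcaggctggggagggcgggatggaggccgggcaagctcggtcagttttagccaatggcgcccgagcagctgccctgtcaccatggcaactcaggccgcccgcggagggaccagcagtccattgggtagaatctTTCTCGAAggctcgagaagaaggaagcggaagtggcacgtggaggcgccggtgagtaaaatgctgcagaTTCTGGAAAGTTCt
Hspb1: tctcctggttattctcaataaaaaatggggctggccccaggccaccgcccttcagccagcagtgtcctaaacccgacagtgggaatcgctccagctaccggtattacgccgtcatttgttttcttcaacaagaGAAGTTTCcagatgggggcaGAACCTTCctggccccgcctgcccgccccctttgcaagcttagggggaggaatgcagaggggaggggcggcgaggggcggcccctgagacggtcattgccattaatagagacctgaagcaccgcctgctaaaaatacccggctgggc
Hspd1: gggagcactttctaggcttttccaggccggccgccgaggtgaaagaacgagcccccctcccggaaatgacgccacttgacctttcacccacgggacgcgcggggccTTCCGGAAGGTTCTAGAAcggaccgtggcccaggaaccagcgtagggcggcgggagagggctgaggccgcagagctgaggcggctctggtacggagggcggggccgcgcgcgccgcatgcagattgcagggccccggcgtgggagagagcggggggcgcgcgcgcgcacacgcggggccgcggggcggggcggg
Cirbp: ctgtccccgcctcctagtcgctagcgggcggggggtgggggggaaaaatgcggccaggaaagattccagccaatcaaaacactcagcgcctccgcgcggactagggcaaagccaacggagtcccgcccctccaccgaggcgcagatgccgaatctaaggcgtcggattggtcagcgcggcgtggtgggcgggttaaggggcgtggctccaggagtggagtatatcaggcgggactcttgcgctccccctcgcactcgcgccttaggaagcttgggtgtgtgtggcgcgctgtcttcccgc

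These windows lie at chr17:34972107-34972406 and chr17:34959189-34959488 on the minus strand for Hspa1a and Hspa1b, at chr5:149636287-149636586 on the minus strand for Hsph1, at chr5:135887669-135887968 on the plus strand for Hspb1, at chr1:55087883-55088182 on the minus strand for the second of the 2 Hspd1 starts, and at chr10:80167589-80167888 on the plus strand for the first Cirbp start. The Hspa1a and Hspa1b windows were identical at 296 of 300 bases, and the substitutions from Hspa1a to Hspa1b, counted from 1 at the 5′ end, were C44T, T47C, T249G and C276T. Each held the match GAAGATTC that begins 104 bases before the start. A pair of facing blocks was found in 5 of the 7 member genes, against 17% of the 27025 genes in the table. The Hspb1 matches begin 117 and 97 bases before the start, those of the second Hspd1 start 144, 139 and 134 bases before it, and the first of Hsph1 33 bases before it. Dnajb1 and Cirbp had no match in their windows. Of 16 other HSF1 target genes in the table, 37.5% had a pair of facing blocks. The longer run GAANNTTCNNGAA or TTCNNGAANNTTC was found for Hspd1 and Hsph1, against 0.662% of all genes. The Hsph1 run lies after the annotated start, and the window of the first Hspd1 start held no match of either kind. The letters describe the sequence and do not show that a factor was bound in these hearts.

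Both cold-induced members were brighter in DOX hearts, and Cirbp by the most of all 20 tested member probe sets. The Cirbp signal was 842 and 1366 on MT-/- DOX arrays and 1032 and 835 on MT+/+ DOX arrays, against 196 and 293 on MT-/- saline arrays and 178 and 168 on MT+/+ saline arrays (deposited linear intensity). The lowest DOX array stood well above the highest saline array, and the genotypes overlapped under DOX. On the scale of log2(normalized intensity + 16), on which all differences are given, Cirbp differed by +2.20 ± 0.16 between DOX and saline averaged over genotypes, or 4.59-fold (± is the standard error of the fit, 2 arrays per group). The difference was +2.09 ± 0.23 in MT-/- and +2.30 ± 0.23 in MT+/+ hearts. In whole hearts, a change in the number of cells of a type and a change in RNA per cell cannot be told apart.

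Rbm3 was measured only through probe sets that the annotation assigns both to Rbm3 and to its pseudogene Rbm3-ps, so the signal cannot be credited to the gene alone. The brighter of the 2 (1422660_at) gave 2634 and 4218 on MT-/- DOX arrays and 3003 and 2991 on MT+/+ DOX arrays, against 1159.9 and 2043 on MT-/- saline arrays and 809.5 and 1372 on MT+/+ saline arrays. All DOX arrays were above all saline arrays, but the saline replicates differed among themselves by 1.76-fold in MT-/- and 1.69-fold in MT+/+ hearts. The DOX difference was +1.27 ± 0.22, or 2.41-fold, with +1.12 ± 0.30 in MT-/- and +1.42 ± 0.30 in MT+/+ hearts. The other probe set (1429169_at) was below the median on all 8 arrays, between 41.2 and 69.9, and was not tested.

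**Figure D1:**
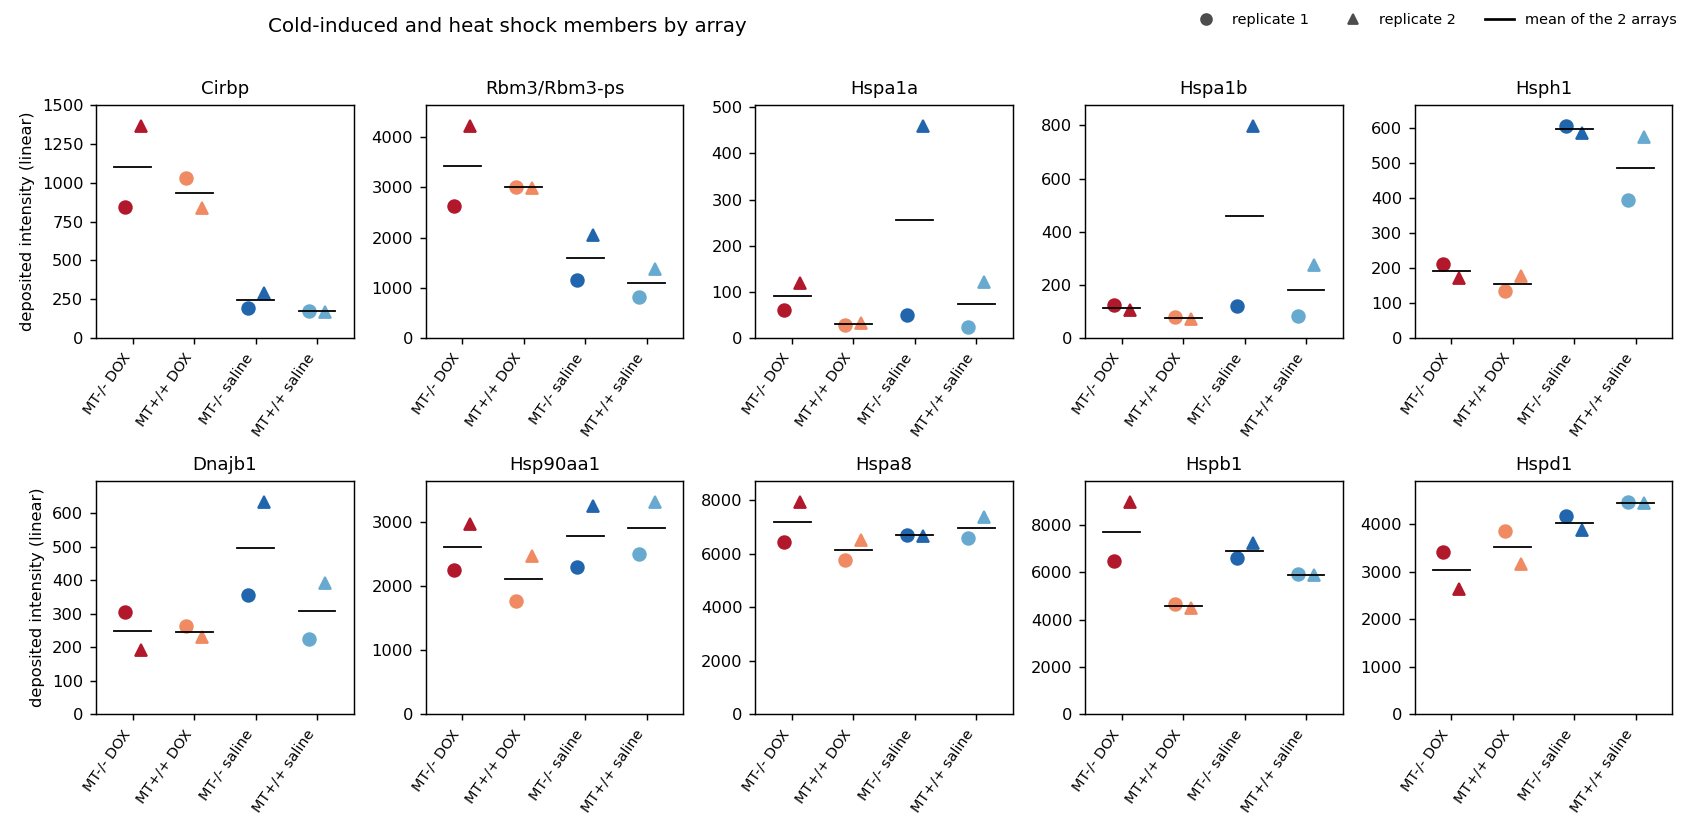
Deposited linear intensity (y axis, from 0) of the brightest tested probe set of each member on the 8 arrays, by group (x axis); circles are replicate 1, triangles replicate 2 and lines the mean of both. Cirbp and Rbm3/Rbm3-ps stand higher and Hsph1 lower on every DOX array, while Hspa1a and Hspa1b are high on the saline arrays numbered 2.

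Hsph1, which encodes the HSP110 chaperone that exchanges nucleotide on HSP70 and keeps aggregates soluble, had the most negative DOX difference of the heat shock members averaged over genotypes. In MT-/- hearts alone, an Hspa1b probe set described with its gene was lower (-1.63). The brighter Hsph1 probe set (1425993_a_at) gave 211 and 173 on MT-/- DOX arrays and 133 and 176 on MT+/+ DOX arrays. Under saline it gave 606 and 587 on MT-/- arrays and 396 and 573 on MT+/+ arrays. No DOX array reached the lowest saline array. The difference averaged -1.56 ± 0.15, or 2.94-fold lower in DOX hearts, and it was -1.50 ± 0.21 in MT-/- and -1.61 ± 0.21 in MT+/+ hearts. The other Hsph1 probe set (1423566_a_at) gave 117 and 79.5 with 74.4 and 87.4 on MT-/- and MT+/+ DOX arrays. Under saline it gave 338 and 241 with 231 and 282 on MT-/- and MT+/+ arrays, and its difference averaged -1.45 ± 0.15. The groups of this probe set did not overlap either.

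Hspa1a and Hspa1b, the neighbouring and nearly identical genes for stress-inducible HSP70, varied more between the replicates of the saline groups than between DOX and saline. The sequences are so alike that the probe sets may not tell the copies apart, and their values are reported as uncertain in that respect. Hspa1a gave 61.3 and 119 on MT-/- DOX arrays and 28.8 and 32.7 on MT+/+ DOX arrays, against 51.0 and 459.6 on MT-/- saline arrays and 23.8 and 122 on MT+/+ saline arrays. The Hspa1b probe set 1452318_a_at gave 124 and 106 on MT-/- DOX arrays and 79.6 and 72.4 on MT+/+ DOX arrays, against 119.7 and 798 on MT-/- saline arrays and 83.6 and 276 on MT+/+ saline arrays. In both genotypes the saline array numbered 2 was high, and the saline array numbered 1 was within the range of the DOX arrays or, for Hspa1a in MT+/+ hearts, below it.

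The other Hspa1b probe sets repeated the pattern, except that MT-/- saline array 1 was slightly above every DOX array for 1427126_at. The signal of 1427127_x_at was 89.3 and 71.0 on MT-/- DOX arrays and 50.3 and 50.5 on MT+/+ DOX arrays, against 87.5 and 704 on MT-/- saline arrays and 61.1 and 229 on MT+/+ saline arrays. For 1427126_at it was 65.6 and 54.7 on MT-/- DOX arrays and 47.0 and 49.5 on MT+/+ DOX arrays, against 69.6 and 692 on MT-/- saline arrays and 49.4 and 204 on MT+/+ saline arrays. This last probe set reached the array median only on the saline arrays numbered 2, so it passed the filter only through the group where it is high. The gap between the saline replicates was 9.02-fold in MT-/- and 5.13-fold in MT+/+ hearts for Hspa1a. For the 3 Hspa1b probe sets it was 6.67-fold to 9.95-fold in MT-/- and 3.30-fold to 4.12-fold in MT+/+ hearts. Under DOX the array numbered 2 had 1.95 and 1.14 times the Hspa1a signal of the array numbered 1 in MT-/- and MT+/+ hearts, and 0.796 to 1.05 times the Hspa1b signal. The saline gaps lay at the 99.91th to 99.99th percentile of those of all tested probe sets in the same group. Averaged over genotypes, the DOX difference was -0.70 ± 0.58 for Hspa1a and between -1.09 ± 0.51 and -1.26 ± 0.59 for Hspa1b. Without both saline arrays numbered 2, a setting chosen after the values were seen, it was +0.43 for Hspa1a and -0.05, -0.13 and -0.08 for the 3 Hspa1b probe sets. Cirbp then differed by +2.30, Rbm3/Rbm3-ps by +1.62 and Hsph1 by -1.46 and -1.51, against +2.20, +1.27, -1.56 and -1.45 with all 8 arrays. Without MT-/- saline array 1, which leaves the high array numbered 2 alone in its group, the Hspa1b differences were -1.71, -1.91 and -1.99.

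Genes that respond within minutes to handling of an animal or tissue were compared on the same arrays. Of 13 measured immediate-early and RNA quality genes, 7 were highest on MT-/- saline array 2. Fos, a transcription factor subunit, gave 1045 there and 41.7 to 189 on the other 7 arrays. Egr1, a zinc finger transcription factor, gave 1811 there and 136 to 273 elsewhere. On MT+/+ saline array 2, which was also high in Hspa1a and Hspa1b, Fos gave 82.9 and Egr1 178, within the range of the remaining arrays. These genes were named after their values were seen, and their part in the HSP70 values was not tested. Between DOX and saline, 3 of the 13 were called higher, Neat1 (+1.49 ± 0.20, adjusted p 0.00261), Zfp36 (+0.90 ± 0.18, adjusted p 0.0123) and Ier3 (+0.43 ± 0.12, adjusted p 0.0451), where 6.98% of all genes were higher. The Hspa8 probe set 1431182_at, too dim to be tested, also gave 136 on MT-/- saline array 2 and 39.4 to 69.0 elsewhere.

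**Figure D2:**
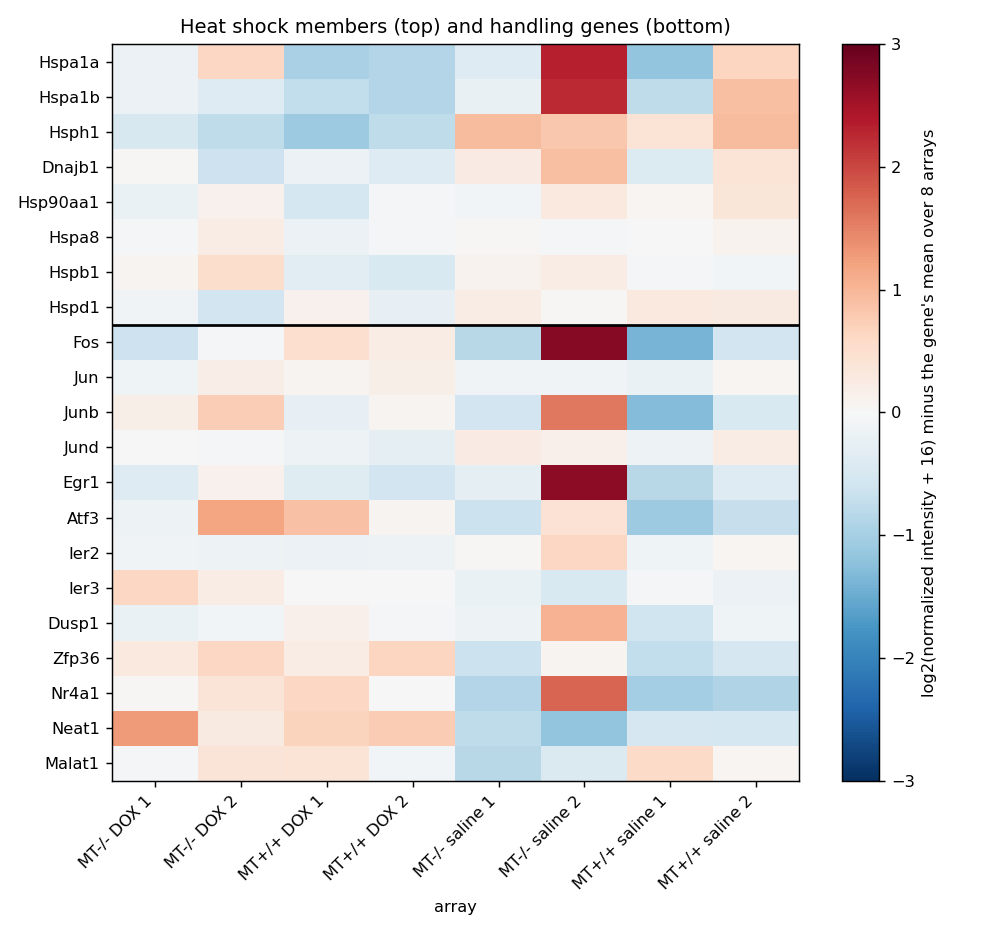
Level of the 8 heat shock members (above the line) and 13 handling and RNA quality genes (below it) on each array (x axis), as log2(normalized intensity + 16) minus the mean of that gene over the 8 arrays (colour, from -3 to 3). Hspa1a and Hspa1b are high on both saline arrays numbered 2, and Fos, Egr1, Junb and Nr4a1 are high on MT-/- saline array 2 alone.

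Dnajb1, the J-domain protein that delivers clients to HSP70 and starts its ATPase, showed a smaller version of the same replicate gap. Its probe set 1416755_at gave 306 and 193 on MT-/- DOX arrays and 263 and 232 on MT+/+ DOX arrays, against 357 and 633 on MT-/- saline arrays and 224 and 394 on MT+/+ saline arrays. The groups overlapped, with MT+/+ saline array 1 among the DOX arrays and the highest values on the saline arrays numbered 2. The other probe set, 1416756_at, gave 318 and 268 on MT-/- DOX arrays and 271 and 246 on MT+/+ DOX arrays, against 311 and 443 on MT-/- saline arrays and 260.3 and 330.1 on MT+/+ saline arrays. The saline array numbered 2 had 1.77 and 1.76 times the signal of the array numbered 1 in MT-/- and MT+/+ hearts for 1416755_at, and 1.43 and 1.27 times for 1416756_at. The DOX difference was -0.58 ± 0.23, and -0.25 ± 0.13 for 1416756_at. Without both saline arrays numbered 2 it was -0.21 and -0.06 for these probe sets.

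Hspd1, the mitochondrial HSP60 that forms the folding cage of the matrix, gave 3418 and 2629 on MT-/- DOX arrays and 3861 and 3159.8 on MT+/+ DOX arrays, against 4173 and 3876 on MT-/- saline arrays and 4458 and 4433 on MT+/+ saline arrays. In this deposited intensity all DOX arrays were below all saline arrays, though the highest DOX array and the lowest saline array lay close together. In normalized log2 level the groups overlapped, with 11.98 on MT+/+ DOX array 1 and 11.88 on MT-/- saline array 2. The difference was -0.40 ± 0.12, or 1.32-fold lower in DOX hearts. Hspe1, whose HSP10 product is the lid of that cage and whose gene is transcribed from the same region in the opposite direction, had a DOX difference of -0.62 ± 0.14 (adjusted p 0.0191), and a second probe set gave -0.48 (adjusted p 0.0713).

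Hsp90aa1, the inducible cytosolic HSP90, differed little. Its brightest probe set (1438902_a_at) gave 2242 and 2964 on MT-/- DOX arrays and 1759 and 2470.0 on MT+/+ DOX arrays, against 2298 and 3246 on MT-/- saline arrays and 2497 and 3303 on MT+/+ saline arrays. The array numbered 2 was the brighter in every group for this probe set, and DOX and saline overlapped. The probe set 1426645_at went the other way between replicates, with 1163 and 957 on MT-/- DOX arrays and 961 and 829.7 on MT+/+ DOX arrays, against 1273 and 1058 on MT-/- saline arrays and 1113 and 887 on MT+/+ saline arrays. Here the array numbered 1 was the brighter in every group, so the probe sets of this gene disagree on the replicates. The 4 tested probe sets averaged between -0.19 and -0.32 in DOX minus saline. The dimmest of them (1433251_at) did not overlap between DOX and saline, with 58.8 to 68.9 on the DOX arrays and 76.3 to 103 on the saline arrays. It reached the array median on 2 arrays, both saline, so it passed the filter only through the group where it is high. The remaining probe set (1441827_x_at) never passed 23.1 and was not tested.

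Hspa8, the constitutive HSP70 of the cytosol, was bright on all arrays. Its brightest probe set (1455789_x_at) gave 6431 and 7919 on MT-/- DOX arrays and 5773 and 6499 on MT+/+ DOX arrays, against 6702 and 6660.2 on MT-/- saline arrays and 6573 and 7362 on MT+/+ saline arrays. The groups overlapped. The dimmest tested probe set, 1420622_a_at, gave 3526 and 4063 on MT-/- DOX arrays and 2963 and 2955 on MT+/+ DOX arrays, against 3735 and 3383 on MT-/- saline arrays and 3574 and 3721 on MT+/+ saline arrays. Both MT+/+ DOX arrays were the lowest here, and the 3 tested probe sets averaged -0.05 to -0.10. Hspb1 (HSP27, a small heat shock protein that binds actin and unfolded proteins) averaged -0.10 ± 0.09 and -0.04 ± 0.10 in its 2 probe sets, and its values by array are given with the genotype comparison.

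Averaged over genotypes, the 18 tested heat shock probe sets each had a negative DOX difference, with a median of -0.31 against -0.001 for all 24751 probe sets. In MT-/- hearts 13 of the 18 were negative, with a median of -0.29, and those of Hspa8 (+0.08 to +0.10) and Hspb1 (+0.14 and +0.21) were positive. In MT+/+ hearts the 18 were negative, with a median of -0.34. For the average over genotypes the same sign held under the deposited scaling and under median centring. Past an adjusted p of 0.05 lay 2 of the 18, both of Hsph1 and both lower, where 6.84% of all probe sets were lower. Of the 2 cold-induced probe sets, both were higher, where 7.03% of all probe sets were higher. In deposited intensity, groups did not overlap for 4 of the 18 heat shock probe sets, all lower (Hsph1, Hspd1 and the dim Hsp90aa1 1433251_at). In normalized log2 level Hspd1 overlapped, while Hsph1 and 1433251_at did not. On that normalized scale 8.83% of all probe sets were lower without overlap. Neither cold-induced probe set overlapped on either scale, where 9.61% of all were higher without overlap in normalized level. In MT-/- hearts 2 heat shock probe sets were lower and 1 cold-induced one higher, where 3.38% and 2.83% of all were; in MT+/+ hearts the counts were 2 and 1, where 1.26% and 1.22% were. Nothing is read from these shares, since the genes were picked on this contrast. Without both saline arrays numbered 2, 16 of the 18 heat shock differences were negative.

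**Figure D3:**
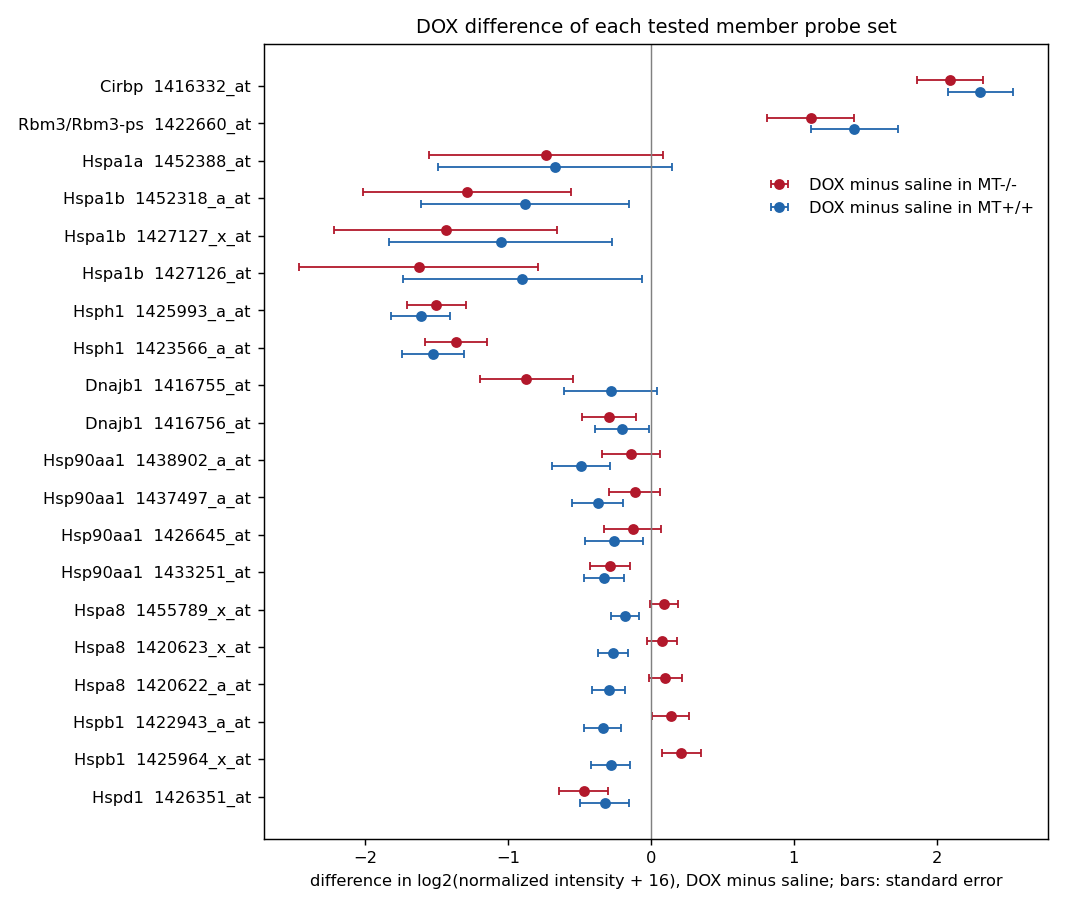
DOX minus saline difference in log2(normalized intensity + 16) (x axis) of the 20 tested member probe sets (y axis) in MT-/- (red) and MT+/+ hearts (blue); bars are standard errors. Cirbp and Rbm3/Rbm3-ps lie right of 0 and Hsph1 left of 0 in both genotypes, and the errors of Hspa1a and Hspa1b are the widest.

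The comparison of the genotypes asks whether the members depended on metallothionein status. Hspb1 was the only member past the threshold, in 1 of its 2 probe sets. The probe set 1425964_x_at, whose suffix means that some of its probes match other transcripts too, gave 5349 and 7417 on MT-/- DOX arrays, against 3692 and 3613 on MT+/+ DOX arrays. Under saline it gave 5052 and 5903 on MT-/- arrays, against 4424 and 4525 on MT+/+ arrays. All 4 arrays labelled MT-/- were above all 4 labelled MT+/+. The difference averaged over treatments was +0.53 ± 0.10, or 1.44-fold higher in MT-/- hearts (adjusted p 0.0494).

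The other Hspb1 probe set, 1422943_a_at, gave 6475 and 8955 on MT-/- DOX arrays, against 4640.3 and 4497 on MT+/+ DOX arrays. It gave 6581 and 7214 on MT-/- saline arrays, against 5903 and 5863 on MT+/+ saline arrays. The arrays separated by genotype in the same way, and the difference was +0.47 ± 0.09 and did not pass (adjusted p 0.0645). Of all 24751 probe sets, 0.44% were called higher in MT-/- hearts and 2.54% were higher there without overlap. Under DOX alone the difference was +0.71 ± 0.13 and +0.77 ± 0.14 (adjusted p 0.0974 and 0.0808), and under saline +0.23 ± 0.13 and +0.28 ± 0.14 (adjusted p 0.661 and 0.614).

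The Hspb1 calls changed with the setting in both directions. For 1425964_x_at the adjusted p was 0.0622 with the deposited scaling, 0.05 with a pseudocount of 1, 0.091 without the mean-variance trend, and between 0.119 and 0.201 without any 1 of the 4 saline arrays or of the MT+/+ DOX arrays. Without MT-/- DOX array 1 it was 0.00663. For 1422943_a_at the adjusted p was 0.0485 with median centring and 0.00663 without MT-/- DOX array 1, and without that array both probe sets also passed under DOX (0.0113 and 0.0131). The neutrophil markers also differed between arrays. Between genotypes limma called 0 of 5 averaged over treatments and 0 of 5 under DOX, with 1 and 3 at an unadjusted p under 0.05. Their mean log2 level over 5 measured genes was 9.02 and 8.69 on MT-/- DOX arrays and 7.76 and 7.69 on MT+/+ DOX arrays, against 7.28 and 7.24 on MT-/- saline arrays and 7.48 and 8.10 on MT+/+ saline arrays. Of the 8 cardiomyocyte markers, 1 was called higher in MT-/- hearts, the atrial peptide gene Nppa (+1.20 ± 0.17, adjusted p 0.0198), where 0.4% of all genes were. The part of either in the Hspb1 values was not tested.

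None of the other 9 members passed in a genotype comparison. Averaged over treatments, the 18 heat shock probe sets ranged from -0.22 (Hspd1) to +1.19 (Hspa1a), with a median of +0.19 against -0.001 for all probe sets. At an unadjusted p under 0.05 were 2 of the 18, both of Hspb1 and higher, where 1633 of all 24751 probe sets were higher. Hspa1a was higher in MT-/- than in MT+/+ hearts by +1.19 ± 0.58 (adjusted p 0.434), and Hspa1b by +0.64 to +0.76 (adjusted p 0.591 to 0.693). Cirbp differed by +0.29 ± 0.16 (adjusted p 0.497) and Rbm3/Rbm3-ps by +0.27 ± 0.22 (adjusted p 0.643). A p above the threshold does not show that the genotypes were alike. Called under DOX were 0 of the 20 probe sets, where 0.283% of all were called, and under saline 0 of 20, where 0.186% were called. Hspa8 differed by +0.21 to +0.33 under DOX (adjusted p 0.468 to 0.723) and by -0.04 to -0.07 under saline. At an unadjusted p under 0.05 these counts were 4 under DOX (Hspb1 and Hspa8, 2 probe sets each) and 0 under saline. Of all 24751 probe sets, 1829 and 2133 were under that p.

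**Figure D4:**
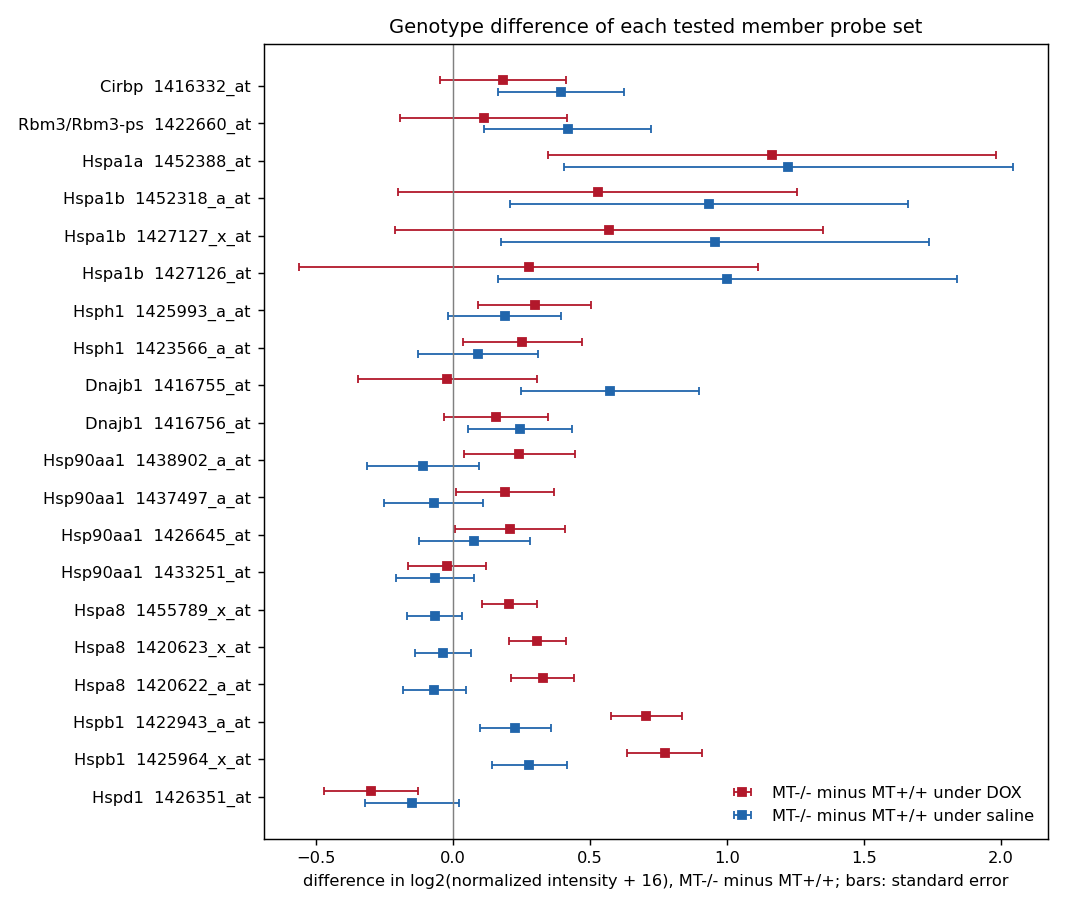
MT-/- minus MT+/+ difference in log2(normalized intensity + 16) (x axis) of the 20 tested member probe sets (y axis) under DOX (red) and under saline (blue); bars are standard errors. Both Hspb1 probe sets lie right of 0 under both treatments and further under DOX, and the errors of Hspa1a and Hspa1b are the widest.

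No DOX difference of a member was shown to depend on genotype. The interaction, which is the DOX difference in MT-/- minus that in MT+/+, was called by limma for 0 of 24751 probe sets (0%), with 573 at an unadjusted p under 0.05, and for 0 of the 20 member probe sets, with 4 at an unadjusted p under 0.05. Those 4 were of Hspb1 (+0.48 ± 0.18 and +0.49 ± 0.19, unadjusted p 0.0291 and 0.031) and Hspa8 (+0.34 ± 0.15 and +0.39 ± 0.16, unadjusted p 0.0429 and 0.0397), and the adjusted p was 1 for each. For Hspb1 the DOX difference was +0.14 ± 0.13 and +0.21 ± 0.14 in MT-/- hearts, and -0.34 ± 0.13 and -0.28 ± 0.14 in MT+/+ hearts. Cirbp had an interaction of -0.21 ± 0.32, Rbm3/Rbm3-ps of -0.31 ± 0.43, and Hsph1 of +0.11 ± 0.29 and +0.16 ± 0.31, and differences of the size of these errors could not be resolved.

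Likeness of profile was measured over the 8 arrays as the root mean square difference between log2 levels, each centred on its own mean, over all tested genes. Closest to Cirbp, whose own levels deviated by 1.13 from their mean, were Spock2 (0.27), Igfbp3 (0.31), Tfdp2 (0.33), Fmo2 (0.36) and Plin4 (0.38). Spock2, a secreted proteoglycan, gave 314 and 536 on MT-/- DOX arrays and 248 and 362 on MT+/+ DOX arrays, against 73.1 and 98.8 on MT-/- saline arrays and 66.1 and 83.4 on MT+/+ saline arrays. Closest to Rbm3/Rbm3-ps were Gsta3, a glutathione transferase (0.14), 2310010J17Rik (0.21), Ofd1 (0.22), Ppp1r15a (0.23) and Dmxl2 (0.23). For Hspa1a, the heat shock member with the widest range of group means, they were Hspa1b (0.41), Egr1 (0.52), Abi3bp (0.62), Junb (0.65) and Cd24a (0.69). The Hspa1a and Egr1 profiles share the high value on MT-/- saline array 2 only, since Egr1 was not high on MT+/+ saline array 2.

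The other known HSF1 target genes were not members, but their list too was chosen with earlier results of these data known, so their counts are a description. These genes were lower in DOX hearts more often than higher. Of 19 listed, 16 were measured, 10 were lower and 1 was higher, with a median difference of -0.49 against -0.01 for the 13008 genes tested, of which 7.81% were lower and 6.98% higher. Serpinh1, the collagen chaperone of the endoplasmic reticulum, averaged -1.91 ± 0.20 (adjusted p 0.000717). It gave 971 and 488 on MT-/- DOX arrays and 766 and 648 on MT+/+ DOX arrays, against 2481 and 2579 on MT-/- saline arrays and 2744 and 2581 on MT+/+ saline arrays. Every DOX array was far below every saline array. Dnaja1, a J-domain partner of HSP70, gave 721 and 651 on MT-/- DOX arrays and 592 and 684 on MT+/+ DOX arrays, against 1306 and 1311 on MT-/- saline arrays and 1124 and 1712 on MT+/+ saline arrays. It averaged -1.04 ± 0.13 (adjusted p 0.00194), and Fkbp4, an HSP90 cochaperone, -0.98 ± 0.13 (adjusted p 0.00234), although a second Fkbp4 probe set gave +0.09 (adjusted p 0.645).

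Ahsa2 (-0.88 ± 0.11) and Ahsa1 (-0.60 ± 0.11), activators of the HSP90 ATPase, and Cacybp (-0.67 ± 0.11), a ubiquitin ligase adaptor, were also lower, with adjusted p of 0.0018, 0.0095 and 0.00624, while a second Ahsa1 probe set gave -0.02 (adjusted p 0.907). The gene that rose was Bag3, a cochaperone of HSP70 in selective autophagy (+0.45 ± 0.09, adjusted p 0.0128). Its signal was 1806 and 2148 on MT-/- DOX arrays and 1507 and 1512 on MT+/+ DOX arrays, against 1351 and 1282 on MT-/- saline arrays and 1087 and 1135 on MT+/+ saline arrays, without overlap. Whichever array was left out, 6 of the 11 calls held, those of Serpinh1, Fkbp4, Dnaja1, Cacybp, Ahsa1 and Ahsa2. Without MT-/- saline array 1 the count of lower genes was 6, and without both saline arrays numbered 2 it was 4. The mean log2 level of the 16 genes was 9.98 on MT-/- saline array 2 and 10.08 on MT+/+ saline array 2, and 10.14 and 10.09 on MT-/- and MT+/+ saline array 1, and Dnaja1 was highest of all arrays on MT+/+ saline array 2.

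**Figure D5:**
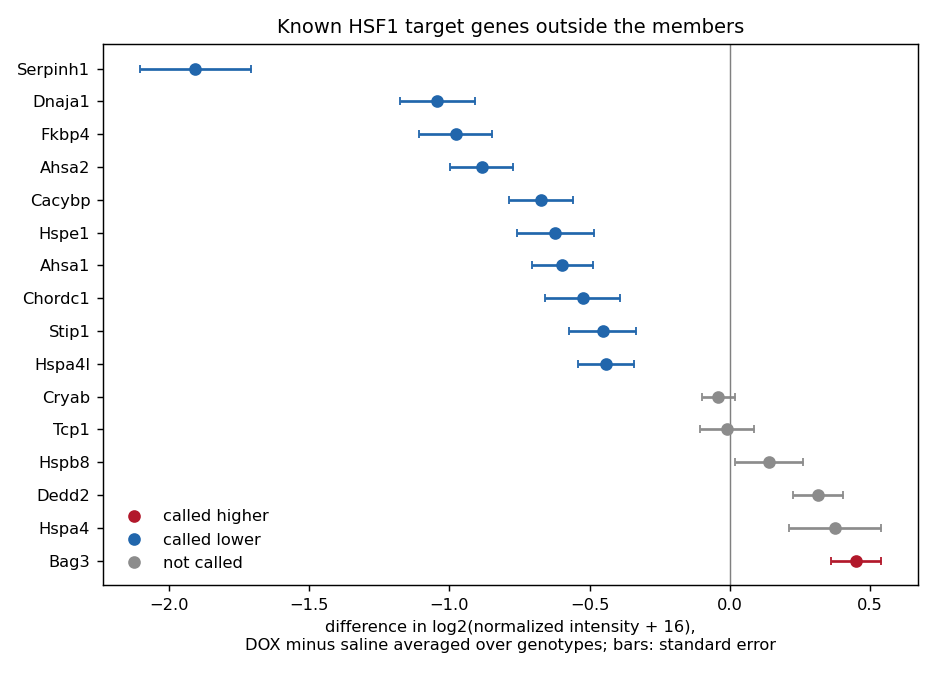
DOX minus saline difference in log2(normalized intensity + 16), averaged over genotypes (x axis), of the 16 measured HSF1 target genes outside the members (y axis); bars are standard errors and colours mark genes lower (blue), higher (red) or not past adjusted p 0.05 (grey). The 10 lower genes run from Serpinh1 at -1.91 to Hspa4l at -0.44, and Bag3 lies at +0.45.

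Of the heat shock factors and their regulators, 0 of 4 measured genes were called by limma, with 0 at an unadjusted p under 0.05. The smallest p were those of Hsf2bp (+0.07 ± 0.11) and Hspbp1 (-0.07 ± 0.10), and Hsf1 had no probe set of its own. The following lists share genes with the HSF1 targets and with each other, and 6.98% of all genes were higher and 7.81% lower. Of 15 measured HSP90 proteins and cofactors, 6 fell, all of them already counted among the HSF1 targets, and Trap1, the mitochondrial HSP90, rose (+0.37 ± 0.08, adjusted p 0.0228). Of 10 other HSP70 and HSP110 proteins, Hspa12b of endothelial cells (-0.57 ± 0.11, adjusted p 0.0116) and Hspa4l, a relative of Hsph1 (-0.44 ± 0.10, adjusted p 0.0217), fell. Hspa4 and Hspa12a did not pass by their brightest probe sets (+0.37 and +0.01, adjusted p 0.183 and 0.975). Other probe sets of Hspa4 (-0.48 and -1.01, adjusted p 0.0376 and 0.0131) and an Hspa12a probe set (-0.74, adjusted p 0.00472) passed as lower. The J-domain proteins went both ways, with 6 of 42 higher and 4 lower. Some that did not pass by their brightest probe set had another that passed as higher, and none had another that passed as lower. These were Dnajc3 (+1.03, adjusted p 0.00183), Dnajb12 (+0.52, adjusted p 0.0067), Dnajc8 (+0.52, adjusted p 0.0077) and Dnajc16 (+0.40, adjusted p 0.0254). Sec63 (+0.67 ± 0.09, adjusted p 0.00258) and Dnajb9 (+0.75 ± 0.15, adjusted p 0.0122), both of the endoplasmic reticulum, and Dnajc7 (+0.63 ± 0.10, adjusted p 0.0043) rose.

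Of 9 other small heat shock proteins, 2 fell and 7 did not pass by their brightest probe sets. Among the 7 was Hspb7 (+0.25, adjusted p 0.271), whose other probe sets passed as higher (+0.45 and +0.35, adjusted p 0.00688 and 0.00971). The muscle protein Hspb3 averaged -1.07 ± 0.24 (adjusted p 0.02) and Hspb6 averaged -0.26 ± 0.07 (adjusted p 0.0325). The mitochondrial chaperones and proteases had 2 of 15 higher, Clpx (+0.57 ± 0.13, adjusted p 0.0205) and Trap1, and 2 lower, Hspe1 and Dnajc15 (-0.38 ± 0.09, adjusted p 0.0213). Of 15 chaperonin and prefoldin subunits, Pfdn5 rose (+0.31 ± 0.08, adjusted p 0.0344) and Cct3 fell (-0.33 ± 0.08, adjusted p 0.0265). Of 14 exchange and degradation partners of HSP70, Bag3 rose and Hspa4l fell. Over the 10 lists, each gene counted once, 12 of 128 rose and 18 fell, where 6.98% and 7.81% of all genes did, and 9 of these 30 calls held whichever array was left out. The count of called genes was 34 without MT-/- DOX array 1 and 12 to 18 without any other array, lowest without MT-/- saline array 1. Between genotypes, limma called 0 of the 128, where 0.884% of the 13008 genes were called. At an unadjusted p under 0.05 were 17 of the 128 and 1722 of the 13008 genes.

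Of 13 measured relatives of Cirbp and Rbm3 and genes of temperature-linked splicing, 2 rose and 1 fell, where 6.98% of all genes were higher and 7.81% lower. Their median difference was +0.21, against -0.01 for all genes. At an unadjusted p under 0.05 were 9 of the 13, where 1769 of the 13008 genes were higher and 1981 lower at that p. Those that rose were the splicing-factor kinase Clk1 (+0.51 ± 0.14, adjusted p 0.0469) and the kinase Dyrk1a (+0.42 ± 0.11, adjusted p 0.0432). Hnrnpa2b1, an RNA-binding protein of splicing and transport, fell (-0.54 ± 0.13, adjusted p 0.0251). Each of these 3 calls was lost on leaving out some single array, and other probe sets of Dyrk1a and Hnrnpa2b1 did not pass. Named after their values were seen, the splicing factor genes Sf3b1 and Rbmx did not pass by their brightest probe sets (+0.21 and +0.38, adjusted p 0.174 and 0.0626). Of their other probe sets, 2 of Sf3b1 (+0.64 and +0.39, adjusted p 0.00437 and 0.0446) and 1 of Rbmx (+0.88, adjusted p 0.0196) passed as higher. Clock genes were examined because the Cirbp level follows the daily cycle of body temperature in mice and its protein binds clock transcripts. Of 14 measured, 6 rose and 1 fell. The clock output factors Tef (+1.20 ± 0.12, adjusted p 0.000552) and Dbp (+1.37 ± 0.17, adjusted p 0.0015), Nr1d2 (+1.03 ± 0.13, adjusted p 0.00162) and Per1 (+1.19 ± 0.15, adjusted p 0.002) had the smallest p. The mean log2 level of the 14 clock genes was 7.90 to 8.18 on the DOX arrays, against 7.55 to 7.67 on the saline arrays, and 5 of the 7 calls held whichever array was left out. The hour at which hearts were taken is not given in the labels, and the part of the clock genes in the Cirbp values was not tested.

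Markers of the cell types of the heart moved with DOX as well, averaged over genotypes, where 6.98% of all genes were higher and 7.81% lower. Fibroblast markers were lower for 5 of 7 genes, with mean log2 levels of 9.02 to 9.35 on the DOX arrays, against 10.56 to 10.96 on the saline arrays. Macrophage markers were lower for 7 of 7, with 8.88 to 9.27 on the DOX arrays, against 9.76 to 10.09 on the saline arrays. Red cell markers were lower for 2 of 4, with 6.17 to 6.53 on the DOX arrays, against 7.80 to 8.21 on the saline arrays. On their lowest array, the best probe sets of the 2, Alas2 and Hbb-b2, lay at percentiles 14 and 6.83. At such dim signal the size of the fall is uncertain. Endothelial markers were lower for 2 of 6 and cardiomyocyte markers for 4 of 8, and neutrophil markers were higher for 3 of 5. In MT-/- hearts 3 of the 5 neutrophil markers were higher and in MT+/+ hearts 0, with mean differences of +1.60 and -0.07. Of all probe sets, 2.83% and 1.22% were higher in these comparisons. For the interaction limma called 0 of the 5, with 3 at an unadjusted p under 0.05, so a dependence on genotype was not shown. No measured marker was at 0 on any array. Serpinh1, which fibroblasts use to fold collagen, fell together with the collagen genes Col1a1 (-2.32 ± 0.19, adjusted p 0.000289) and Col3a1 (-3.38 ± 0.26, adjusted p 0.000211). Of the fat markers, Cidea, at the 85.9th to 94.2th percentile of the arrays, rose (+0.68 ± 0.11, adjusted p 0.00632), and Fabp4, at the 99.6th to 99.8th percentile and also a gene of capillary endothelium, fell (-0.22 ± 0.05, adjusted p 0.0187). Ucp1 of brown fat lay between the 40.5th and 53.3th percentile and did not pass, and Adipoq was too dim to be tested. The part of these markers in the values of Hsph1, Cirbp and the HSF1 targets was not tested.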

How the data were processed

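RNA of 8 mouse hearts was measured on Affymetrix arrays. Total RNA was extracted with Trizol and labelled cRNA was made from 2 µg, per the labels' protocols. The deposited values are linear intensity per probe set, made by the authors with GCOS 1.4 per the submitters' processing notes, with a scaling not given in the sources used here. Median intensities of the arrays were 80.0 to 87.4.

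From these intensities 64 controls were dropped, the arrays were quantile-normalized, and log2(intensity + 16) was tested for the 24751 of 45037 probe sets at or above the array median on at least 2 of 8 arrays. The pseudocount of 16 understates changes of dim probe sets. limma 3.58.1 (R 4.3.3) was fitted on 4 group means with a mean-variance trend (4 residual degrees of freedom, prior 4.66). Tests were two-sided, with p-values adjusted by Benjamini and Hochberg over the 24751 probe sets in each of 7 comparisons and a threshold of 0.05. An exact test of 2 against 2 arrays cannot go below p 0.333, so none was made. The fit was tested on simulated data.

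Gene names came from the platform annotation (1 symbol for 34945 probe sets, several for 932, none for 9160); a probe set with several symbols named no gene. Outside the members a gene stood as its tested probe set with the highest mean. The text names all members, per list up to 6 called genes by smallest p (the 2 with the smallest p where none was called), up to 4 for marker, clock and handling lists, and the 5 most like profiles for 3 members. The members and the lists were chosen with earlier results of these data known. Promoters are from RefSeq (GRCm38.p6). Alternatives covered scaling, pseudocount, filter, trend, the groups fitted, a replicate block, each array left out and the mean over probe sets of a gene.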

Additional observations from a re-analysis of the deposited data

How the results depend on the processing

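Of 1640 values of the member probe sets under the alternatives, 1614 kept their direction and side of the threshold or had no call to lose, 9 lost a call (all of Hspb1 1425964_x_at for genotype averaged over treatments), 17 gained one and 0 reversed a call; 77 changed sign without a call on either side. With a replicate block, which takes the replicate number as a term, the counts of called probe sets were 6702 for DOX averaged (3433 without it), 1202 for genotype averaged (224), 383 for genotype under DOX (70), 209 for genotype under saline (46) and 1 for the interaction (0), and 56 listed genes passed for DOX (30) and 7 for genotype (0). With the block both Hspb1 probe sets passed for genotype averaged, 1422943_a_at at adjusted p 0.0163, and under DOX, at 0.0197 and 0.0133, and for DOX so did Hspd1 (0.00421) and Hsp90aa1 1438902_a_at (0.00425), 1433251_at (0.0294) and 1437497_a_at (0.039). The differences between replicates 2 and 1 correlated at 0.36 to 0.542 between groups, but the labels do not say that a number marks a shared litter, batch or day, and there are only 2 numbers, so the arrays were not treated as paired. Leaving out 1 array in turn gave 1753 to 3838 called probe sets for DOX averaged, 88 to 202 for genotype averaged, 13 to 50 under saline, 23 to 71 under DOX and 0 to 1 for the interaction, 12 to 34 listed genes for DOX averaged, 0 for genotype averaged, and 6 to 10 HSF1 targets lower. The DOX count fell by over 1.5 times without MT-/- saline array 1 (1753) or 2 (1978), MT+/+ saline array 1 (2240) or 2 (2279), MT-/- DOX array 2 (2206) or MT+/+ DOX array 2 (2039), and the genotype count was lowest without MT+/+ saline array 1 (88). Without both saline arrays numbered 2, chosen after seeing the data, 959 probe sets, 7 listed genes and 4 lower HSF1 targets passed, in a fit with 2 arrays fewer. Fitted on the compared groups alone, 36 probe sets passed for genotype under DOX. Of the calls for genotype averaged, 48.7% were higher in MT-/- with quantile normalization, 64.7% with median centring and 53.3% with the deposited scaling. Signal limits the dim members: Hspa1a reached the array median on 3 of 8 arrays, and Hspa1b 1427126_at and Hsp90aa1 1433251_at on 2 each. The cause of the other changes was not tested.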
